A study of Homo sapiens with 3 samples.

Results

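The transcripts of the mitochondrial fission and fusion machinery were read on 3 single-color oligonucleotide arrays of THP-1 macrophages, 1 array for each condition, all on 1 slide. The machinery was taken as 10 genes of the 43317 gene names on the array. The fission side held DNM1L, FIS1, MFF, MIEF1, MIEF2, MTFP1 and GDAP1, and the fusion side held MFN1, MFN2 and OPA1. Every probe that carried one of these names was used, which gave 18 probes of 58201 and 1 to 3 probes per gene. GDAP1L1, a paralog of GDAP1, was left aside. THP-1 is a human monocytic leukemia line that the phorbol ester PMA turns into macrophage-like cells, and per the labels all cells had received PMA at 100 ng/ml and then fresh medium. The Ctrl array held cells with no further treatment named. The IMQ array held cells given imiquimod, a small-molecule ligand of toll-like receptor 7. The third array, IMQ+X, held cells given IMQ and the compound written as X in its title. The treatment protocol names pretreatment with DMD, a benzenediol derivative from the fungus Antrodia cinnamomea, and no other compound beside IMQ. The titles give 4 h, and the labels give no dose of IMQ or X. The line is a single leukemia line, and what was measured is transcript abundance, so protein amount, phosphorylation and mitochondrial shape were not analysed here. With 1 array per condition no difference has a replicate check, and no p-value was computed. In such bulk RNA, fewer cells that carry a transcript and less of the transcript per cell cannot be told apart.

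Mitochondria divide when the cytosolic GTPase Drp1, the product of DNM1L, is recruited to the outer membrane by receptors, assembles into a ring and constricts the organelle. Mff and the proteins MiD51 and MiD49, encoded by MFF, MIEF1 and MIEF2, are its main receptors in mammalian cells, and Fis1 is an outer-membrane protein that also binds Drp1. Fusion needs the mitofusins Mfn1 and Mfn2 on the outer membrane and the GTPase Opa1 on the inner membrane. In macrophages the balance of division and fusion is known to shift on inflammatory activation, and much of its control lies in phosphorylation and proteolysis, which an array of transcripts does not read.

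The probes on which the results turn are shown first. They are 2 pairs in which a bright and a dim probe of the same gene gave different differences (MFN2 and MIEF2), the OPA1 pair, in which both probes gave alike differences, and the single probes of MFN1 and MTFP1, which lay at the upper and lower end of the comparison of IMQ with Ctrl. The scanner output gives each sequence, its position on hg19 and its first base in the transcript. All of the positions named here are on the plus strand. No hg19 annotation was used here, so exon and untranslated-region status were not assigned. For 6 probes the first 30 of 60 bases are shown, and for the other 2 all 60, each 5′ to 3′ with no base marked.
MFN2 A_23_P126135, first 30 bases: ttgtttttatgttcatttgctggagcgcaa
MFN2 A_33_P3320277: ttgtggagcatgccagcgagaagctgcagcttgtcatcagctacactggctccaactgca
MIEF2 A_23_P501372, first 30 bases: cagtgtgccaaaatgaactgctctcagctg
MIEF2 A_33_P3420367, first 30 bases: aactgaggtccagaggggcgtgacatacct
OPA1 A_23_P211797, first 30 bases: gtgcttcccagcctcacaatgtgggaattt
OPA1 A_33_P3346498: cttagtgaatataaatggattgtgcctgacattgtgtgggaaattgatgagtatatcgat
MFN1 A_23_P80648, first 30 bases: tgttgactttcttccccactgtggaagagg
MTFP1 A_23_P29204, first 30 bases: cacctgggtgggtttgagctggacagaagc

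The bright MFN2 probe lies at chr1:12073420-12073479 and starts at base 4524 of its transcript, and the dim one lies at chr1:12067231-12067290 and starts at base 2446. The bright MIEF2 probe lies at chr17:18168888-18168947 and starts at base 2385, and the dim one lies at chr17:18166768-18166827 and starts at base 656. The OPA1 probes lie at chr3:193414874-193414933, from base 5766, and at chr3:193333496-193333555, from base 618. In each pair the dim probe thus starts further upstream. The dim MIEF2 probe is listed for the Ensembl transcript ENST00000395703 only, and the bright one for the RefSeq transcript NM_139162. The MFN1 probe lies at chr3:179110836-179110895 and the MTFP1 probe at chr22:30824628-30824687.

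Levels are given as log2 of the normalized intensity, which the authors had quantile normalized over the 3 arrays, and differences are between log2 levels of the same probe. A level is not compared between probes, since brightness also depends on the probe. The value after ± is the SD of a difference that the noise of repeated spots within an array gives, taken from the 20 repeated probes nearest in brightness. It covers neither the culture, the RNA preparation nor the labeling. A difference of at least 2 such SDs is called past the noise, and one of at least 2-fold is 1 on the log2 scale. Each of the 18 probes stood well above background on every array, so no value is a bound. Over all transcript probes 66.6% to 72.0% were well above background. Of the macrophage markers fixed for the check, 6 of 8 had probes (CD68 and LYZ had none), and all 6 were well above background on the 3 arrays, with log2 levels of 13.2 to 17.9. The T-cell markers CD3E and CD3D were also well above background on every array, with log2 of the summed level of 8.96 to 9.16. The keratinocyte sum was 6.12 to 6.81 and the fibroblast sum 5.67 to 5.69, with COL1A2 not above background on any array. The part of other cell types in the results was not tested. CXCL8, IL1B and TNF, which answer toll-like receptor ligands, were 6.16, 4.45 and 3.46 higher on the IMQ array than on the Ctrl array.

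**Figure D1:**
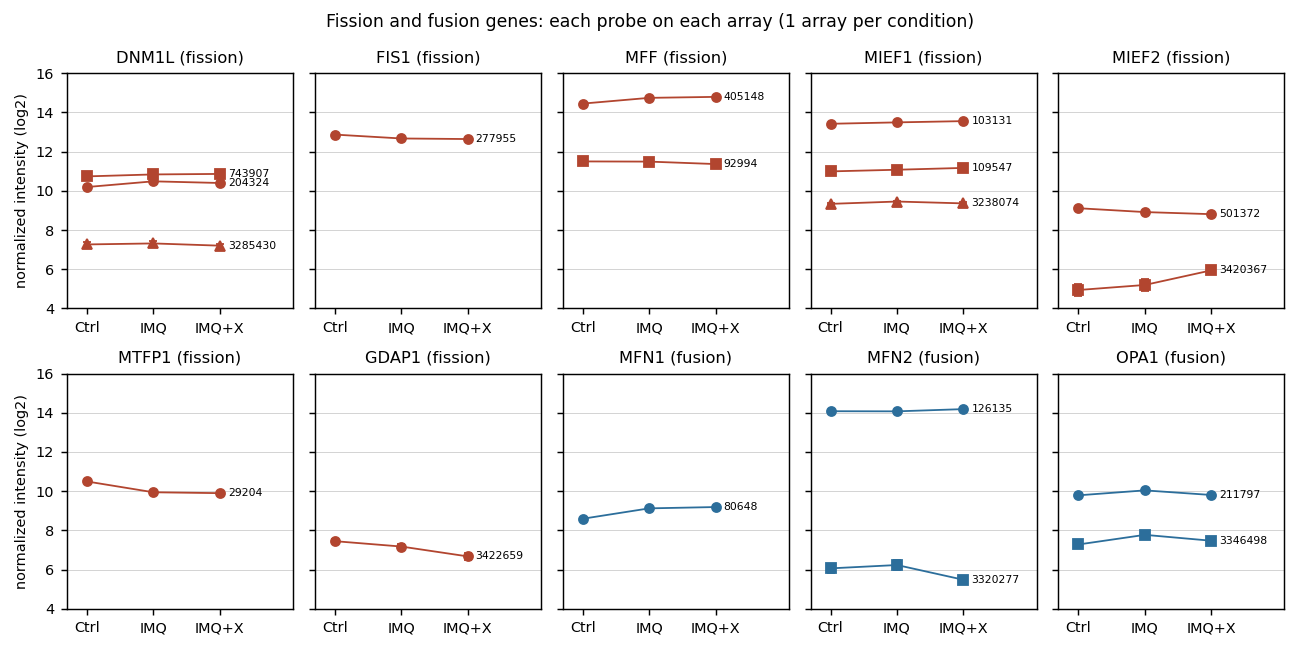
Log2 normalized intensity (y axis) of each probe of the 10 genes for Ctrl, IMQ and IMQ+X (x axis), 1 array per condition, with bars of 1 SD of repeated-spot noise and the last digits of the probe name at the right. Fission genes are red and fusion genes blue. Most lines are nearly flat, and the visible slopes are those of MTFP1, GDAP1, MFN1, OPA1 and the dim probes of MIEF2 and MFN2.

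DNM1L, the gene of the fission GTPase Drp1, had 3 probes and differed little between the arrays. Probe A_23_P204324 gave 10.19 for Ctrl, 10.49 for IMQ and 10.40 for IMQ+X. Probe A_24_P743907 gave 10.74, 10.84 and 10.86 in the same order. Both were lowest on the Ctrl array. The difference of IMQ from Ctrl was 0.29 ± 0.07 for the first, which is past the noise, and 0.10 ± 0.07 for the second, which is not. The third probe, A_33_P3285430, which is listed for an Ensembl transcript alone, gave 7.27, 7.32 and 7.20. Its differences, like those of the other DNM1L probes between IMQ+X and IMQ, lay within the noise, with -0.09 ± 0.06, 0.03 ± 0.07 and -0.11 ± 0.17 for the 3 probes in that comparison. Against Ctrl, IMQ+X was 0.21 ± 0.06 for the first probe, past the noise, and 0.13 ± 0.07 for the second. The 0.29 of the first probe was -0.11 with no normalization between the arrays and -0.26 after scaling to spike-in probes. Its 0.21 for IMQ+X was -0.28 and -0.25. Measured from the median of all probes, these differences were 0.38 for IMQ and 0.06 for IMQ+X under both scalings. Here and for the genes below, such values are equal under both by construction. The scalings differ only by a shift common to all probes of an array, so their equality is no added check.

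The receptors gave small differences too. The brighter MFF probe, A_23_P405148, gave 14.45 for Ctrl, 14.74 for IMQ and 14.79 for IMQ+X. The other MFF probe, A_23_P92994, gave 11.50, 11.49 and 11.37. The 2 probes did not move together: IMQ against Ctrl was 0.29 ± 0.06 for the first and -0.01 ± 0.07 for the second, and IMQ+X against Ctrl was 0.34 ± 0.05 and -0.13 ± 0.06. Both are listed for the same RefSeq transcript, NM_020194. The sign of the brighter probe turned with no normalization, where IMQ against Ctrl was -0.02, and with spike-in scaling, where it was -0.17. For IMQ+X against Ctrl the values were -0.10 and -0.07. Measured from the median of all probes, this probe was 0.47 for IMQ and 0.23 for IMQ+X under both scalings.

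MIEF1, which encodes the Drp1 receptor MiD51, had the closest agreement between probes for IMQ against Ctrl. Its 3 probes gave 13.42, 10.99 and 9.34 on the Ctrl array and 13.49, 11.08 and 9.45 on the IMQ array. On the IMQ+X array they gave 13.56, 11.17 and 9.36. The differences of IMQ from Ctrl, 0.07, 0.08 and 0.12, spanned 0.05 and none was past the noise. Against Ctrl, IMQ+X was 0.14 ± 0.06 and 0.18 ± 0.06 for the brighter probes, both past the noise, and 0.02 ± 0.07 for the third. Those 2 differences were -0.34 and -0.32 with no normalization and -0.31 and -0.29 after spike-in scaling. From the median of all probes they lay at -0.004 and 0.01 under both.

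MIEF2 encodes the related receptor MiD49. Its bright probe gave 9.11 for Ctrl, 8.92 for IMQ and 8.81 for IMQ+X. Its dim probe went the other way, with 4.94, 5.20 and 5.94. The bright probe was lower than Ctrl past the noise on both treated arrays, with -0.20 ± 0.08 for IMQ and -0.30 ± 0.08 for IMQ+X, that is 0.872 and 0.810 of its Ctrl intensity. The dim probe was 0.75 ± 0.36 higher on the IMQ+X array than on the IMQ array and 1.003 ± 0.36 higher than on the Ctrl array. The last value, just past 2-fold, was the only member difference in any comparison to reach that threshold after quantile normalization. Before normalization the dim probe read 37.6, 28.4 and 61.0 in intensity units, and the repeated probes behind its noise on the Ctrl array ran from log2 2.36 to 7.33, so its error is less closely matched to its brightness than that of brighter probes. Its spot on the IMQ+X array was less even than 70.4% of spots of like brightness. The difference from Ctrl was 0.70 with no normalization and 0.73 with spike-in scaling, below the threshold in both, while the difference from IMQ was 1.101 and 1.28 under those scalings. With normexp background correction the dim probe was only 0.37 above Ctrl and 0.27 above IMQ.

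FIS1, which encodes the outer-membrane adaptor Fis1, had a single probe. It gave 12.87 for Ctrl, 12.67 for IMQ and 12.64 for IMQ+X. The treated arrays were lower than Ctrl, with -0.20 ± 0.06 for IMQ and -0.23 ± 0.06 for IMQ+X, both past the noise, and IMQ+X against IMQ was -0.03 ± 0.07. With no normalization the differences from Ctrl were -0.55 and -0.70, where the median of all probes was -0.49 and -0.33. From that median FIS1 lay at -0.06 for IMQ and -0.37 for IMQ+X. With 75th percentile scaling its differences from Ctrl were -0.10 and -0.32. The probe spans 642 bases on hg19 and therefore crosses an intron.

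MTFP1 and GDAP1 had the largest negative differences from Ctrl on the fission side. MTFP1 encodes an inner-membrane protein whose loss elongates mitochondria. Its probe gave 10.49 for Ctrl, 9.94 for IMQ and 9.90 for IMQ+X. It was lower than Ctrl, with -0.55 ± 0.07 for IMQ and -0.60 ± 0.06 for IMQ+X, an intensity of 0.682 and 0.661 of Ctrl, and IMQ+X lay within the noise of IMQ at -0.04 ± 0.07. Every scaling tried kept MTFP1 below Ctrl. It was lower by 2-fold or more under spike-in scaling, with -1.11 and -1.03, and for IMQ+X with no normalization, with -1.06. The median of all probes was itself -0.64 and -0.30 under spike-in scaling. Measured from that median, MTFP1 was -0.47 for IMQ and -0.73 for IMQ+X under both scalings, short of 2-fold. GDAP1 encodes an outer-membrane protein that is altered in an inherited neuropathy and whose excess fragments mitochondria. Its probe gave 7.45, 7.17 and 6.67 in the order Ctrl, IMQ and IMQ+X. It was -0.27 ± 0.19 for IMQ against Ctrl, within the noise, -0.50 ± 0.22 for IMQ+X against IMQ and -0.78 ± 0.20 for IMQ+X against Ctrl, both past it. IMQ+X against IMQ was -0.26 with no normalization, -0.08 after spike-in scaling and -0.32 with normexp. From the median of all probes it was -0.30 with no normalization and with spike-in scaling. The GDAP1 spot on the IMQ array was less even than 94.5% of spots of like brightness. For the paralog GDAP1L1, 1 probe gave 5.50, 5.40 and 5.23 and the other 2.21, 8.56 and 3.42, the latter well above background on the IMQ array alone.

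MFN1, which encodes mitofusin 1, had the largest positive difference of the 18 probes between IMQ and Ctrl. Its probe gave 8.59 for Ctrl, 9.12 for IMQ and 9.19 for IMQ+X. Both treated arrays lay above Ctrl and close to each other. The difference was 0.53 ± 0.08 for IMQ and 0.60 ± 0.08 for IMQ+X, or 1.44 and 1.51 times the Ctrl intensity, and IMQ+X against IMQ was 0.07 ± 0.07. Before normalization the intensities were 463, 499 and 525. The difference of IMQ from Ctrl was 0.11 with no normalization and -0.05 after spike-in scaling, while relative to the median of all probes under those scalings it was 0.60. For IMQ+X against Ctrl the values were 0.18 and 0.21.

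MFN2 encodes mitofusin 2. Its bright probe gave 14.08 for Ctrl, 14.07 for IMQ and 14.18 for IMQ+X, and no difference was past the noise. Its dim probe gave 6.06, 6.23 and 5.48. The dim probe was -0.75 ± 0.34 for IMQ+X against IMQ, past the noise, where the bright probe gave 0.11 ± 0.06. The probes of MFN2 thus differed by 0.87 in that comparison, the widest gap between probes of 1 member gene there, with MIEF2 next at 0.85. In both genes the dim probe had the larger difference, and after quantile normalization the bright probe had the opposite sign, but the bright MIEF2 probe gave 0.115 with spike-in scaling and the bright MFN2 probe -0.02 with no normalization, the sign of the dim probe in each gene. The dim MFN2 probe gave -0.43, -0.25 and -0.38 under no normalization, spike-in scaling and normexp.

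OPA1 encodes the inner-membrane fusion GTPase, and its probes gave one pattern on both. Probe A_23_P211797 gave 9.79 for Ctrl, 10.04 for IMQ and 9.80 for IMQ+X. Probe A_33_P3346498 gave 7.28, 7.77 and 7.47. On both the IMQ array was the highest. IMQ against Ctrl was 0.25 ± 0.08 and 0.49 ± 0.16, and IMQ+X against IMQ was -0.24 ± 0.07 and -0.30 ± 0.13, each past the noise. IMQ+X against Ctrl was 0.02 ± 0.07 and 0.19 ± 0.15, within it. Among the member genes with several probes, OPA1 was the only one whose probes were all past the noise in the same direction, in these 2 comparisons. The signs of the pattern rest on the scaling. With no normalization IMQ against Ctrl was -0.14 and -0.02, and with spike-in scaling it was -0.30 and -0.18. IMQ+X against IMQ for the second probe was 0.06 with spike-in scaling. Set against the median of all probes under both of these scalings, IMQ against Ctrl was 0.35 and 0.47. IMQ+X against IMQ was -0.33 and -0.16 on that basis. Both comparisons share the IMQ array, which enters them with opposite signs. The 2 OPA1 spots on the IMQ+X array were less even than 92.9% and 87.1% of spots of like brightness. On the IMQ array these shares were 55.8% and 78.9%. The repeated probes behind the noise of the second probe on the IMQ+X array ran from log2 5.88 to 8.20.

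**Figure D2:**
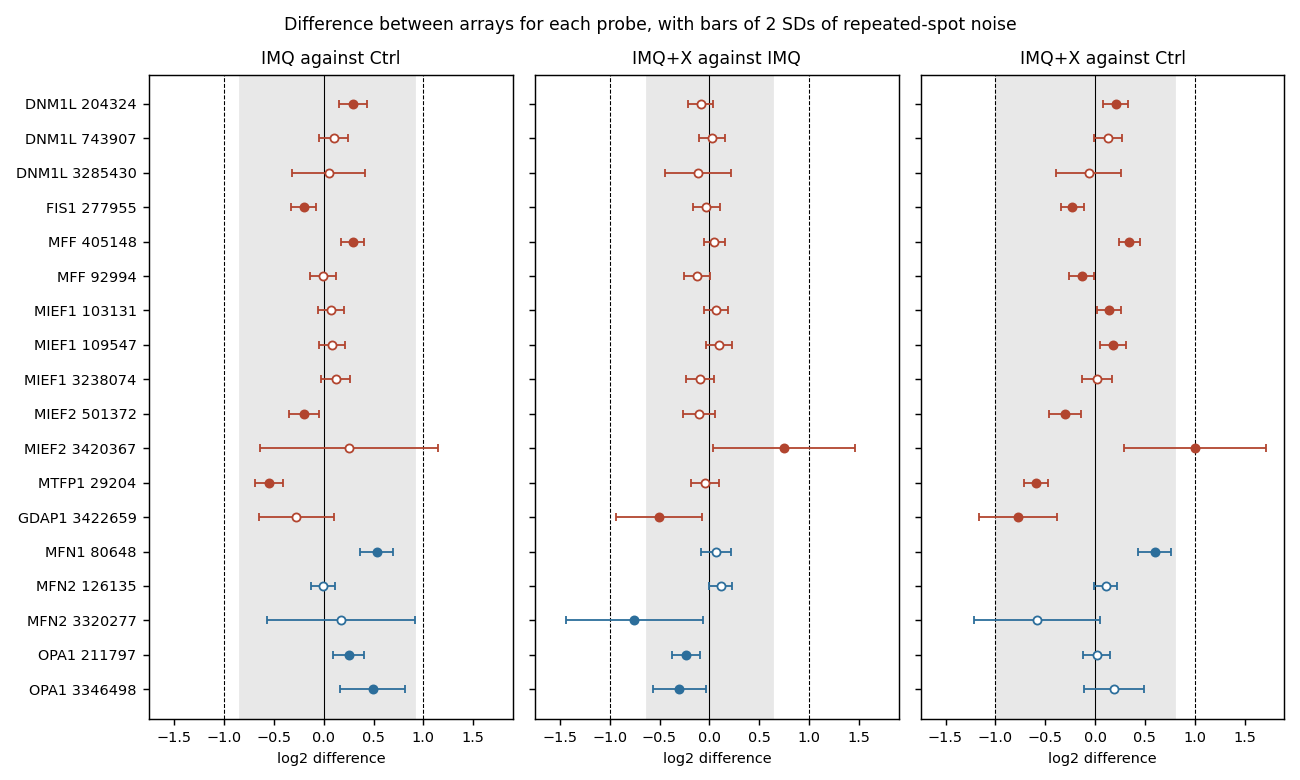
Log2 difference (x axis) of each of the 18 probes (y axis, gene and last digits of the probe name) for IMQ against Ctrl, IMQ+X against IMQ and IMQ+X against Ctrl, with bars of 2 SDs of repeated-spot noise. Filled points are past the noise, the dashed lines mark 2-fold and the gray band holds the 5th to 95th percentile of all probes compared. In IMQ against Ctrl all 18 points lie inside the band, and the dim MIEF2 and MFN2 probes have the widest bars.

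Counted over the 18 probes, the machinery held 1 difference past 2-fold in the 3 comparisons. Its absolute differences were on the median smaller than those of all probes, which were not matched to it in brightness. Between IMQ and Ctrl 0 probes were higher and 0 lower by 2-fold, against 4.19% and 3.38% of the 42358 probes compared. Past the noise, 5 were higher and 3 lower, against 19.3% and 19.4% of all probes, and 10 lay within it. As shares of the 18, these are 27.8% and 16.7%. Since the noise SD falls with brightness, that rule takes smaller differences in bright probes, and all 18 were above background. The median difference was 0.09, with a range of -0.55 to 0.53, beside a median of 0.00 and a 5th to 95th percentile of -0.84 to 0.91 over all probes. The median absolute difference was 0.20 for the machinery and 0.27 for all probes. All probes compared include dim ones, which are noisier, and the part of brightness in this gap was not tested. The 5 higher probes belonged to DNM1L, MFF, MFN1 and OPA1, and the 3 lower ones to FIS1, MIEF2 and MTFP1.

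Between IMQ+X and IMQ 0 probes passed 2-fold in either direction, against 1.06% higher and 1.27% lower of 42003. Past the noise, 1 was higher (the dim MIEF2 probe) and 4 were lower (GDAP1, the dim MFN2 probe and both OPA1 probes), against 13.3% and 14.7% of all probes, and 13 lay within it, shares of 5.56% and 22.2%. The median was -0.07 with a range of -0.75 to 0.75, beside -0.02 and a 5th to 95th percentile of -0.63 to 0.64 over all probes. None of the DNM1L, MFF, MIEF1, FIS1, MTFP1 and MFN1 probes was past the noise in this comparison. The SD of the difference was 0.05 to 0.07 for the FIS1, MFF and MIEF1 probes and the brighter DNM1L probes.

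Between IMQ+X and Ctrl 1 probe was higher by 2-fold and 0 lower, against 3.09% and 4.91% of 43704. Past the noise, 6 were higher and 5 lower, against 22.0% and 21.2% of all probes, and 7 lay within it, shares of 33.3% and 27.8%. The median was 0.07 with a range of -0.78 to 1.003, beside 0.04 and a 5th to 95th percentile of -0.99 to 0.81. The median absolute differences were 0.10 and 0.19 for IMQ+X against IMQ, and 0.20 and 0.28 for IMQ+X against Ctrl, for the machinery and for all probes. These too were not matched for brightness. The 3 comparisons share arrays in pairs, so their counts are not separate evidence.

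Taken by side, the 13 fission probes had a median of 0.07 for IMQ against Ctrl, with 2 higher and 3 lower past the noise. The 5 fusion probes had a median of 0.25, with 3 higher and 0 lower. The shares were 15.4% and 23.1% for fission and 60.0% and 0.00% for fusion, against 19.3% and 19.4% of all probes. For IMQ+X against IMQ the medians were -0.04 and -0.24, with 1 higher and 1 lower on the fission side and 0 higher and 3 lower on the fusion side. The shares were 7.69% each for fission and 0.00% and 60.0% for fusion, against 13.3% and 14.7% of all probes. The 3 lower fusion probes were both OPA1 probes and the dim MFN2 probe. MFN1 and the bright MFN2 probe gave 0.07 and 0.11, within the noise. For IMQ+X against Ctrl they were 0.02 and 0.11. The fusion side is 3 genes, its probes of 1 gene share transcripts, and the difference between the sides was not tested.

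The direction of these small differences depends on how the arrays are set level with each other. Over the probes well above background on every array, the median difference of IMQ from Ctrl was -0.49 with no normalization and -0.64 after scaling to 10 spike-in probes. Quantile normalization sets that median near 0. Of the 18 probes, 12 were above 0 in IMQ against Ctrl after quantile normalization, 1 with no normalization (MFN1) and 0 with spike-in scaling. No normalization and spike-in scaling differ only by a shift common to all probes of an array. Differences taken from the median of all probes are therefore equal under both by construction, and their equality is no added check. Relative to the median of all probes, 14 of 18 lay above it under both of these scalings, and the median of the machinery lay 0.18 above it. For IMQ+X against IMQ 3 of 18 lay above it, and the median of the machinery lay 0.13 below it. With a quantile normalization redone here, 13 lay above it for IMQ against Ctrl and 7 for IMQ+X against IMQ. The median of the machinery then lay 0.11 above and 0.04 below it.

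**Figure D3:**
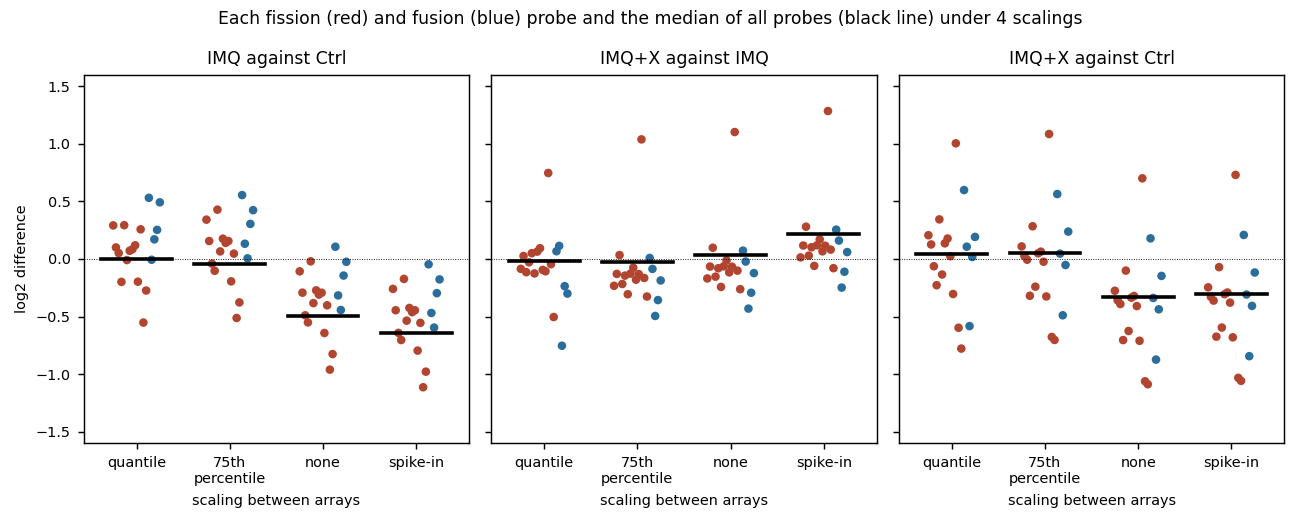
Log2 difference (y axis) of each fission (red) and fusion (blue) probe for the 3 comparisons under quantile normalization by the authors, scaling to the 75th percentile, no normalization and spike-in scaling (x axis), with the median of all probes well above background on the 3 arrays as a black line. In IMQ against Ctrl the probes drop with the black line, from mostly above 0 to 0 probes above 0 under spike-in scaling.

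The genes that act on this machinery were taken as 6 lists of 56 genes in all, and every gene had a probe that could be compared. Each gene is given by its probe with the highest mean level. In IMQ against Ctrl 1 gene was higher and 2 were lower by 2-fold, against 4.19% and 3.38% of all probes, and the median was -0.03. In IMQ+X against IMQ 0 genes passed 2-fold, against 1.06% higher and 1.27% lower of all probes, and the median was 0.03. In IMQ+X against Ctrl 1 was higher and 3 lower, against 3.09% and 4.91% of all probes, with a median of -0.04. Past the noise the counts were 15 higher and 15 lower, 2 and 8, and 18 and 16 in the 3 comparisons, beside the shares of all probes given above. Counted over all 86 probes of these genes, 22 were higher and 23 lower, 5 and 12, and 26 and 24.

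PPP3CC encodes a catalytic subunit of calcineurin, the phosphatase that releases Drp1 to mitochondria by removing an inhibitory phosphate. It gave 11.31 for Ctrl, 12.61 for IMQ and 12.68 for IMQ+X. It was 1.29 ± 0.07 higher after IMQ, or 2.45 times the Ctrl intensity, and 1.37 ± 0.06 higher after IMQ+X. Both treated arrays lay above Ctrl under every scaling, with IMQ against Ctrl at 0.93 with no normalization and 0.78 with spike-in scaling, both short of 2-fold. The other catalytic subunits gave -0.14 for PPP3CA and 0.30 for PPP3CB.

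CDK1, the mitotic kinase that phosphorylates Drp1 for division of mitochondria in mitosis, gave 11.47, 10.26 and 10.15. It was lower than Ctrl, with -1.21 ± 0.07 for IMQ and -1.32 ± 0.07 for IMQ+X, and its second probe gave -0.86 and -0.53. MTFR2, a fission regulator related to MTFR1, gave 10.74, 9.28 and 9.16 and was lower than Ctrl, with -1.46 ± 0.07 and -1.58 ± 0.07. Its relatives MTFR1 and MTFR1L gave 0.01 and -0.05 for IMQ against Ctrl, but the second, dim MTFR1 probe gave 0.86 ± 0.42, past the noise. AKAP1, which anchors protein kinase A at the outer membrane, gave 12.94, 12.15 and 11.88. It was lower than Ctrl, with -0.79 ± 0.06 for IMQ and, past 2-fold, -1.06 ± 0.06 for IMQ+X, and its second probe gave -0.57 and -0.69. CDK1, MTFR2 and AKAP1 lay below Ctrl on both treated arrays under every scaling.

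Within the lists, the 15 kinases and phosphatases acting on Drp1 (the list includes the anchor AKAP1) had a median of -0.15 for IMQ against Ctrl, with 3 higher and 8 lower past the noise. Of all probes, 19.3% were higher and 19.4% lower past it. The list counts use the brightest probe of each gene, where the noise rule takes smaller differences. The 7 ubiquitin and SUMO enzymes of the outer membrane had a median of 0.27, with 4 higher and 0 lower. The higher ones were PARK2 at 0.82 (0.16 on its other probe), HUWE1 at 0.73 (1.30 on its other probe), SENP5 at 0.35 and MUL1 at 0.27. With no normalization the median of that list was -0.11, and with spike-in scaling -0.26. The 11 proteases and partners that process OPA1 on the inner membrane had a median of -0.04, with YME1L1 at 0.36 and OMA1, the stress-activated protease that cuts Opa1, at -0.15. The 8 subunits of the cristae junction complex MICOS and their partner gave -0.15, the 7 actin and membrane factors 0.11 and the 8 other regulators 0.03. The medians of the last 2 lists also turned, to -0.26 and -0.38 with no normalization and to -0.41 and -0.53 with spike-in scaling, and that of the OPA1-processing list was 0.09 with 75th percentile scaling. Among the last, the 3 probes of MSTO1 gave 0.53, -0.33 and -0.75, so no direction is given for that gene.

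In IMQ+X against IMQ each gene was again taken at its probe of the highest mean level. The largest positive differences in the lists were 0.20 ± 0.06 for SPIRE1, an actin nucleator at sites of division, and 0.18 ± 0.12 for STX17, the latter within the noise. The largest negative ones were -0.68 ± 0.21 for PARK2, the ubiquitin ligase parkin, and -0.45 ± 0.07 for DNM2, a dynamin. The same PARK2 probe gave 6.48 for Ctrl, 7.30 for IMQ and 6.62 for IMQ+X. Its fall thus follows a rise of 0.82 ± 0.26 on the shared IMQ array, and IMQ+X against Ctrl was 0.14 ± 0.28, within the noise. The second PARK2 probe gave 0.27 ± 0.37, the second DNM2 probe -0.27 ± 0.34 and the second SPIRE1 probe -0.01 ± 0.12, all within the noise. Among the less bright probes of other genes, larger positive differences past the noise were 0.81 ± 0.16 for MINOS1, a MICOS subunit whose brighter probe gave -0.05, 0.45 ± 0.14 for SPG7, an inner-membrane protease subunit, and 0.23 ± 0.06 for INF2, an actin nucleator. Larger negative ones than that of DNM2 were -0.62 ± 0.26 for IMMT, the core subunit of MICOS, and -0.53 ± 0.26 for PRKACB, a catalytic subunit of protein kinase A, whose brightest probes gave 0.04 and 0.002. DNM2 gave -0.56 with no normalization and -0.38 with spike-in scaling. By the brightest probe of each gene, all 11 genes of the OPA1-processing list and all 8 other regulators lay within the noise in this comparison. Of the 19 probes of the OPA1-processing list, 1 was higher (the SPG7 probe above) and 2 were lower past it, another SPG7 probe at -0.44 ± 0.20 and a PHB probe at -0.16 ± 0.06, so no direction is given for SPG7.

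**Figure D4:**
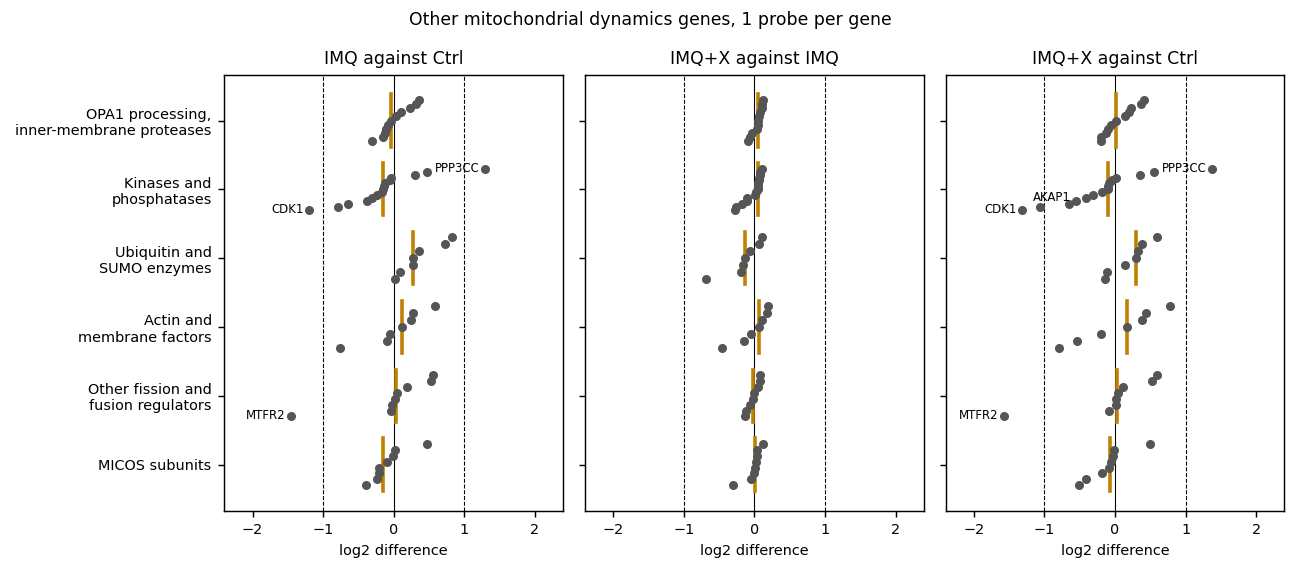
Log2 difference (x axis) of the genes of the 6 lists (y axis, 1 probe per gene, points spread vertically in order of value) for the 3 comparisons, with the list median as an orange bar and dashed lines at 2-fold. Genes past 2-fold are named: PPP3CC, CDK1 and MTFR2 in IMQ against Ctrl, 0 genes in IMQ+X against IMQ, and AKAP1 in addition in IMQ+X against Ctrl.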

How the data were processed

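Cy3-labeled RNA of 3 THP-1 samples was hybridized to Agilent arrays, and the scanner output (Feature Extraction 10.5.1.1) and a table of raw and quantile-normalized intensity per probe were deposited by the authors, with 0 columns of values per sample left unused. The marks for background, outliers and saturation are deposited as 0 or 1, and 0 spots were saturated. The normalized intensity was converted to log2 and subtracted between arrays in Python 3.11.15 (numpy 2.4.6, pandas 2.3.3, and matplotlib 3.10.9). Comparison required a probe to stand well above background on the brighter array, and the dimmer value was raised to the lowest one above background where it lay under it. Noise came from 300 probes with 10 spots each. Alternatives were an own quantile normalization and normexp with limma 3.58.1 in R 4.3.3, scaling to the 75th percentile or to spike-in probes, no normalization, other filters on dim probes, 1.5-fold and another probe summary. The scripts were tested on simulated data. All 10 members are named, and of the listed regulators those past 2-fold or else the 2 largest differences each way; other regulators were named after their values were seen. The members and lists were chosen with earlier results of these data known. Precision is limited by the number of arrays. The result of 1 marker list is not reported here.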

Additional observations from a re-analysis of the deposited data

How the results depend on the processing

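No paired analysis was possible because each group has 1 array, and the slide could not serve as a block because all arrays lie on 1 slide. Of 378 single-probe differences recomputed under 7 alternatives, 253 moved by less than their noise SD or kept their value. A further 107 moved more, and 18 that had been past the noise changed sign. The 253 include 54 with no filter on dim probes and 54 with the stricter filter. Those were fixed in advance, since every member probe stood well above background on every array, and they are no sign of stability. Counting those within the noise too, 67 changed sign. These were 26 with no normalization, 28 with spike-in scaling, 11 with 75th percentile scaling and 1 each with normexp and own quantile normalization. Own quantile normalization moved 0 by more than the noise SD, and the filters on dim probes could move none. The cause of the moves was not tested beyond the shift of all probes given above.
With no normalization the member median was -0.31 for IMQ against Ctrl and -0.37 for IMQ+X against Ctrl, where the median of all probes was -0.49 and -0.33. In IMQ against Ctrl 5 regulators passed 2-fold, all lower, and in IMQ+X against Ctrl 6 were lower and 0 higher. By 2-fold, 1 member probe was higher in IMQ+X against IMQ, and 0 were higher and 2 lower in IMQ+X against Ctrl. No share of all probes past 2-fold under this scaling is given, so these counts are not read as results about the genes. The 8 sign changes of differences past the noise were, for IMQ against Ctrl, DNM1L A_23_P204324 (-0.11), MFF A_23_P405148 (-0.020), OPA1 A_23_P211797 (-0.14) and OPA1 A_33_P3346498 (-0.024), and for IMQ+X against Ctrl, DNM1L A_23_P204324 (-0.28), MFF A_23_P405148 (-0.10), MIEF1 A_23_P103131 (-0.34) and MIEF1 A_23_P109547 (-0.32).
With spike-in scaling the member medians were -0.46, 0.092 and -0.34 for IMQ against Ctrl, IMQ+X against IMQ and IMQ+X against Ctrl. The medians of all probes were -0.64, 0.22 and -0.30. By 2-fold, 1 member probe was lower in the first, 1 was higher in the second, and 0 were higher and 2 lower in the third. Of the regulators, 5 were lower and 0 higher in the first and also in the third. Shares of all probes past 2-fold are not given here either. The 10 sign changes of differences past the noise were the same probes with -0.26, -0.17, -0.30 and -0.18 and with -0.25, -0.071, -0.31 and -0.29 in the same order, together with MFN1 A_23_P80648 for IMQ against Ctrl (-0.046) and OPA1 A_33_P3346498 for IMQ+X against IMQ (0.060).
Under 75th percentile scaling there was 1 higher probe and a median of -0.15 for IMQ+X against IMQ. Normexp and 1 probe per gene each gave 0 higher probes for IMQ+X against Ctrl, and the mean over probes left 2 regulators there. At 1.5-fold, 9 regulators passed in IMQ against Ctrl, and 1 probe higher, 1 lower and 1 regulator in IMQ+X against IMQ. In IMQ+X against Ctrl 2 probes were higher and 2 lower, and 9 regulators passed. No share of all probes stands beside these counts, so they are not read as results about the genes. Signal over background limits the dim probes of MIEF2 and MFN2, whose noise SDs were the largest of the 18 member probes.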
